A study of Mus musculus with 10 samples.

Results

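The 9 genes described here encode parts of the phagocyte NADPH oxidase (Cybb, Cyba, Ncf1, Ncf4 and Rac2) and of the receptors for the Fc part of IgG (Fcgr1, Fcgr2b, Fcgr3 and their signalling subunit Fcer1g), measured in mouse bone marrow cells by RNA-seq. They were chosen by name and not by a limit on their values, but with earlier results of these data known. They are 9 of the 55359 genes in the table. All 9 passed the limit on low values, a mean of at least 0.1 FPKM over the 10 libraries, as did 18742 genes in all. FPKM divides a gene's fragments by its length and by the size of the library, so levels can be compared between genes. The study compared Lin− cells of Dhx9f/f mice (WT, 5 libraries) with those of Dhx9f/f;MX1 mice (cKO, 5 libraries). Lin− cells are what is left of the marrow after beads have removed cells with surface antigens of mature blood lineages, so they are a mixture of stem cells, progenitors and whatever escapes the beads. Both groups carry floxed alleles of Dhx9, which encodes an RNA helicase, and the cKO mice also carry a Cre recombinase driven by the interferon-responsive Mx1 promoter. That Cre is switched on by injecting poly(I:C), which mimics viral RNA and itself triggers interferon. The sources used here do not state whether the WT mice that were sequenced received poly(I:C), and if they did not, its effect and that of the genotype cannot be told apart. Age and the number of animals behind each library were not given in the sources used here, so p-values measure only the spread between these samples.

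The phagocyte NADPH oxidase passes electrons from NADPH across a membrane to oxygen and so makes superoxide, which phagocytes use against microbes. Its catalytic subunit gp91phox (Cybb) sits in the membrane with p22phox (Cyba) as flavocytochrome b558, and it works only after cytosolic subunits, among them p47phox (Ncf1) and p40phox (Ncf4), and a RAC GTPase have moved there. Fc gamma receptors bind IgG on opsonised particles or immune complexes and, in the activating forms, signal through the ITAM of the common gamma chain (Fcer1g). In mice Fcgr2b is the inhibitory receptor of the family, and engagement of the activating receptors is one of the signals that start oxidase assembly.

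The targeted gene was examined first. Dhx9 was at 65.43 to 72.42 FPKM in the WT libraries and at 130.8 to 156.5 in the libraries labelled cKO, so it was about 2.01 times as high where it should have been lost. The level of Dhx9 thus does not show the loss that the labels name. The labels are kept as names only, and each direction given here depends on them. Values per gene cannot tell transcripts with the floxed exons from transcripts without, so this level alone cannot decide whether the labels hold. By qRT-PCR and Western blot, the paper reports reduced DHX9 expression in bone marrow cells of cKO mice injected with poly(I:C). The qRT-PCR result is thus opposite in direction to the level of Dhx9 RNA in these Lin− libraries. Xist was at 99.19 FPKM or more in libraries WT 3, WT 4 and WT 5 and at most at 0.09 in the other 7, so sex and genotype are partly confounded. The libraries held 13836936 to 18710999 fragments, read from the steps between low FPKM values, of which 95.9% to 96.3% per library came out whole within 0.2 of a fragment. A gene of 1000 bp at the floor of 3 fragments would lie at 0.16 to 0.217 FPKM. The progenitor gene Kit was at 36.56 to 54.36 FPKM in WT and at 18.73 to 31.11 in cKO, and Cd34 at 20.1 to 28.57 and 1.05 to 6.78. Neither is part of the Lin− gate. The lineage antigen genes Cd5 and Ly6g stayed at or below 0.13 and 1.32 FPKM in all 10 libraries. The lineage antigen gene Ly6c2, in contrast, was at 174 to 299.3 FPKM in WT and 3.2 to 64.1 in cKO.

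All positions are on GRCm39, the build named in the submitters' processing notes, with the GENCODE annotation. Cybb lies on chromosome X from 9301491 to 9354010, Cyba on chromosome 8 from 123150422 to 123159706, Ncf1 on chromosome 5 from 134248907 to 134258479 and Fcgr1 on chromosome 3 from 96190225 to 96201338, all on the minus strand. Ncf4 (plus strand, 78128982 to 78146784) and Rac2 (minus strand, 78443367 to 78457429) share chromosome 15, with 296583 bp between them. On chromosome 1, Fcgr2b (170786186 to 170804177), Fcgr3 (170878738 to 170893549) and Fcer1g (171057141 to 171062219), all on the minus strand, lie within 276 kb, with Fcgr4 between the first 2. The promoters of 5 of the genes are shown because they hold the letters bound by 2 families of myeloid transcription factors whose own genes are described further on. Each is the 250 bases before the start of the gene's canonical transcript, read 5′ to 3′ on the gene's strand. In Cybb and Ncf1 the capitals mark GAAA, any 2 bases and GAAA, a form of the site of interferon regulatory factors (IRF), and in Ncf4, Rac2 and Fcer1g they mark GAGGAAGT, a form of the site of PU.1. Matches on the opposite strand appear as the reverse complement.
Cybb, chrX:9335571-9335820, minus strand: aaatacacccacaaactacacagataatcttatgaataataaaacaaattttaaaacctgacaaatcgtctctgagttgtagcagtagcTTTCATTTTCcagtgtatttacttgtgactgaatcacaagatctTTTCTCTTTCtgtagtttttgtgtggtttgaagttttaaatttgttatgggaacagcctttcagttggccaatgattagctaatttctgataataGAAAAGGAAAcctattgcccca
Ncf1, chr5:134258480-134258729, minus strand: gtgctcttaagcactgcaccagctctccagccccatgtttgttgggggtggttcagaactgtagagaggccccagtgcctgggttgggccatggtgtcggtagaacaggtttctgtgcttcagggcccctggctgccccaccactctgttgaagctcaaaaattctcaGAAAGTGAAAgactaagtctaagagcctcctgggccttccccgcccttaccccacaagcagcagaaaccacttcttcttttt
Ncf4, chr15:78128732-78128981, plus strand: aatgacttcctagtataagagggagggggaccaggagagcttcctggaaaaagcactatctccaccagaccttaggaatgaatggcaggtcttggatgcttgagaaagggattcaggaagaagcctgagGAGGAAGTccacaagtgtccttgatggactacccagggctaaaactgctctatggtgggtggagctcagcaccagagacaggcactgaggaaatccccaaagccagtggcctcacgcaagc
Rac2, chr15:78457430-78457679, minus strand: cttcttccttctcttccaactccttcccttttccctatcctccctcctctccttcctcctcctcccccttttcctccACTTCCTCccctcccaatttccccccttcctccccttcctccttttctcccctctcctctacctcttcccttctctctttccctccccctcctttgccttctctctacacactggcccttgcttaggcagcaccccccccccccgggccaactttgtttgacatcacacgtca
Fcer1g, chr1:171062220-171062469, minus strand: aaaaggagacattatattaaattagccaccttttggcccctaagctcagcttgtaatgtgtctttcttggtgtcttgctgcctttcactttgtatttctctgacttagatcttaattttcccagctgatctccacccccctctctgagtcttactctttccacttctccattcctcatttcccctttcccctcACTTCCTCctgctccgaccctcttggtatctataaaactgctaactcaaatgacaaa

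Of 7 motifs searched on both strands, the PU.1 letters GAGGAAGT were in 3 of the 9 promoters and in 2.22% of all 18625 promoters of this length. Their matches began 121 bases before the start in Ncf4, 173 in Rac2 and 57 in Fcer1g. The shorter core GAGGAA, which every match of the longer form contains, was in the same 3 promoters of the 9 and in 23.2% of all. The IRF letters (GAAA, any 2 bases, GAAA) were in 2 of the 9 and in 3.3% of all promoters, with 3 matches in Cybb, at 161, 117 and 22 bases before the start, and 1 in Ncf1, at 82. The ETS-IRF composite (GGAA, any 2 bases, GAAA) was in none of the 9 and in 2.43% of all. The C/EBP letters TTGCNNAA were found in Fcgr3 (8.55% of all promoters), the GATA letters AGATAA in Cybb, Cyba and Fcgr3 (9.3%) and the RUNX letters TGTGGT in Cybb (13.8%). These matches describe the letters and do not show that a factor binds there.

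Fcgr2b and Fcgr3 are close relatives, and the stretch where they are most alike bears on how far their counts can be told apart. The coding sequences of their canonical transcripts, 882 and 804 bp long, were 80.4% identical over 791 aligned bp, against 63.26% for Fcgr3 and Fcgr4 over 743 bp. The longest identical run was 129 bases, and the most similar window of 150 bases, the length of one read, differed at 1 base. Below are 90 bases of that stretch, from base 256 to 345 of the Fcgr2b coding sequence and from 241 to 330 of that of Fcgr3, with the base that differs in capitals.
Fcgr2b: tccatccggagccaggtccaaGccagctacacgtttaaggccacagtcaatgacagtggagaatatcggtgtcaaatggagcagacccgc
Fcgr3: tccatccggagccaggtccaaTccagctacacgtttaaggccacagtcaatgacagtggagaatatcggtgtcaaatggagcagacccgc
No window of 150 bases in the transcripts of Cybb, Cyba, Ncf1, Ncf4, Rac2, Fcgr1, Fcgr3 or Fcer1g occurred in an annotated transcript of another gene. In Fcgr2b, 79 of 3254 windows (2.43%) did, shared with Gm64270 and Aldh1a2.

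A gene counted as called when limma on log2(FPKM + 0.1) gave an adjusted p under 0.05 (Benjamini-Hochberg, over all genes tested) and the change was at least 2-fold. Of the 9 genes, 7 were called lower in cKO and 0 higher, where 16.8% of all genes tested were called lower and 4.6% higher. The 7 were Cybb, Cyba, Ncf1, Ncf4, Fcgr2b, Fcgr3 and Fcer1g. Rac2 passed the adjusted p but not the fold change, and Fcgr1 passed neither. On adjusted p alone 8 of the 9 were lower, against 28.3% of all genes tested. In 8 of the 9, Fcgr1 being the exception, all 5 cKO libraries lay below all 5 WT libraries, as they did in 21.6% of all genes tested. The median log2 fold change was -2.89 over the 9 genes and -0.11 over all genes tested. In bulk samples such as these, fewer cells of a type and less RNA per cell cannot be told apart. Fold changes on log2(FPKM + 0.1) understate the change of low genes. Under quantile normalization the calls over all genes went from 3153 lower and 862 higher to 2302 lower and 1514 higher, and the median log2 fold change went from -0.11 to 0.10, while 7 of the 9 genes were still called lower.

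**Figure D1:**
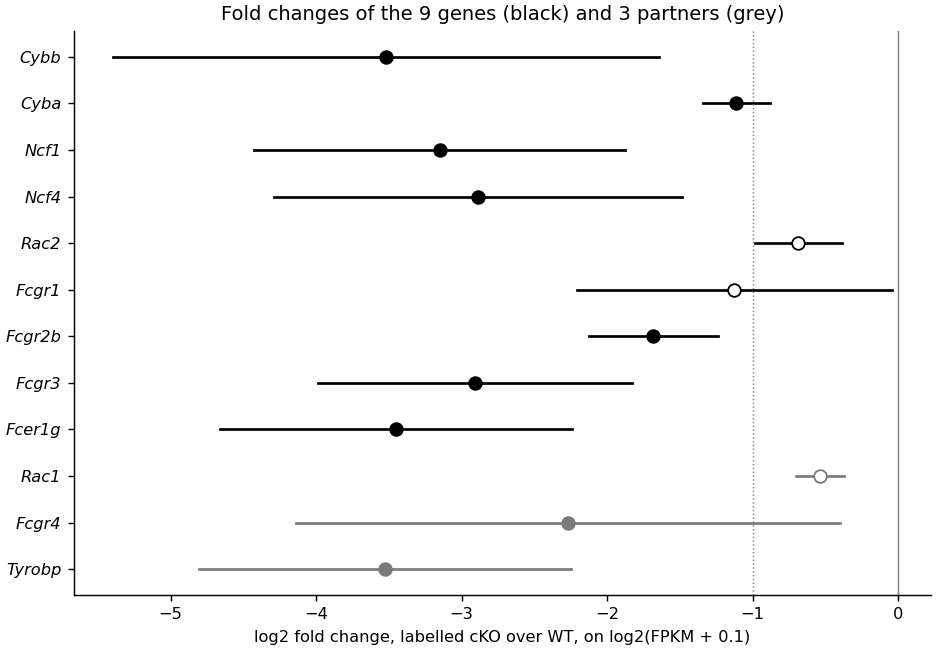
Log2 fold change of labelled cKO over WT on the log2(FPKM + 0.1) scale, with 95% confidence intervals from limma, for the 9 genes (black) and 3 partners (grey). Filled points were called and open points were not. The dotted line marks a 2-fold fall. Of the 9, Cybb had the lowest estimate, -3.52, and Rac2 the highest, -0.69.

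Of the flavocytochrome genes, Cybb was at 40.62, 23.81, 25.25, 36.28 and 37.07 FPKM in WT 1 to 5. The cKO libraries 1 to 5 were at 10.86, 0.75, 5.76, 0.27 and 8.21. The cKO values spread 40.2-fold from lowest to highest while those of WT spread 1.71-fold, and the groups did not overlap. Its average was 32.6 ± 7.57 FPKM in WT and 5.17 ± 4.62 in cKO (SD, n = 5 each), so that it fell by 3.52 on the log2 scale (standard error, SE, 0.851, adjusted p = 0.00619 from limma). Library cKO 4 held about 19.2 fragments of Cybb and cKO 2 about 61.4, against at least 1858 in each WT library. Without cKO 4 the log2 fold change was -2.79 (adjusted p = 0.00644 from limma). An exon of Cybb overlaps one of Xk, a blood group protein gene on the opposite strand, which was at 17.55 to 23.82 FPKM in WT and 25.63 to 41.15 in cKO and was not called. Whether counting used strand is not given in the sources used here.

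Cyba behaved more evenly. It was at 88.4, 71.45, 70.53, 81.99 and 90.48 FPKM in WT 1 to 5. Libraries cKO 1 to 5 were at 30.95, 34.38, 43, 38.48 and 39.36. The groups did not overlap, and the coefficient of variation was 11.5% in WT and 12.5% in cKO, where that of Cybb was 23.2% and 89.4%. Its mean level was 80.6 ± 9.29 FPKM in WT and 37.2 ± 4.66 in cKO (SD, n = 5 each), so that it fell by 1.11 on the log2 scale (SE 0.104, adjusted p = 5.54e-05 from limma). The lowest cKO library for Cyba was cKO 1, which was the highest for Cybb.

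**Figure D2:**
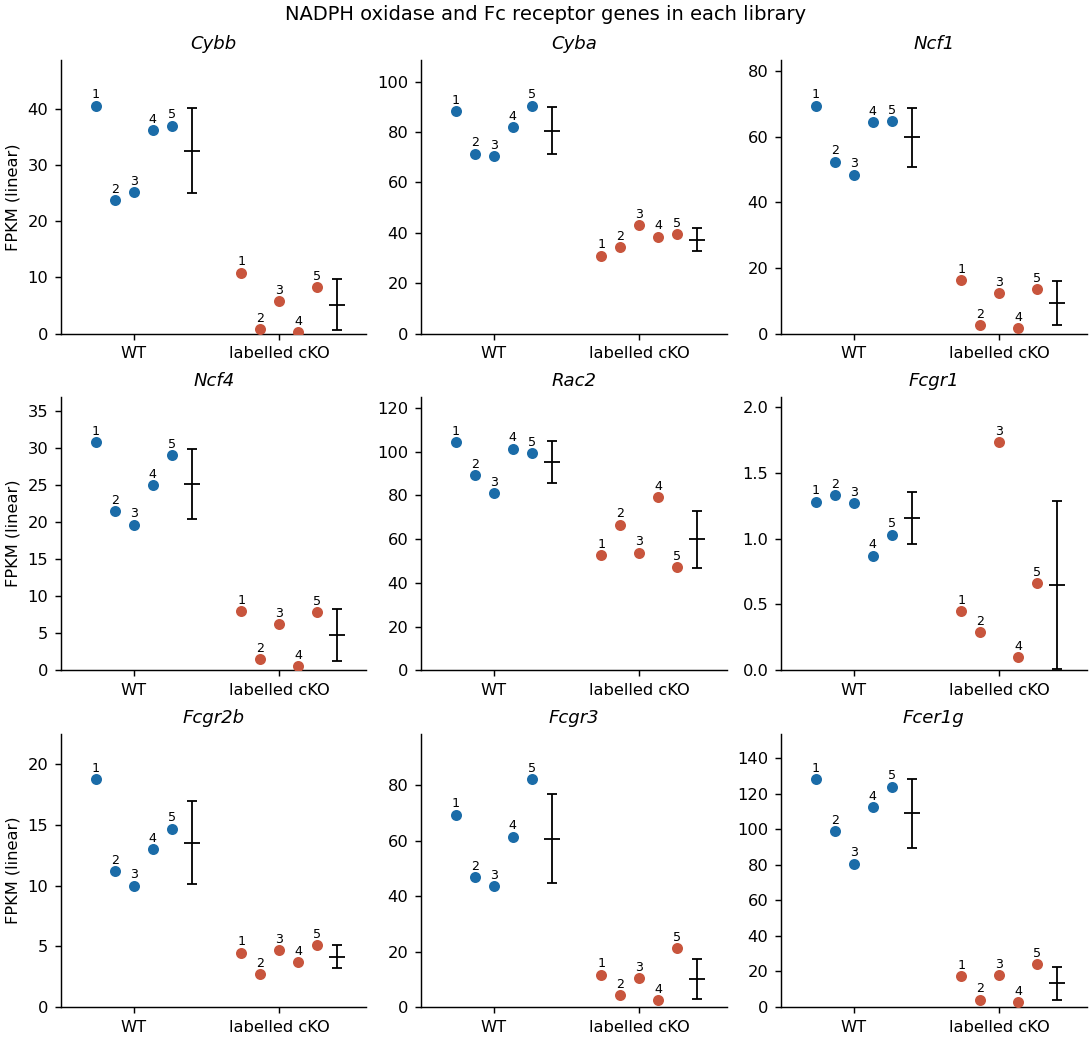
FPKM (linear axis from 0) of each of the 9 genes in the WT and the labelled cKO libraries. Points are libraries with their numbers, and the bar beside them is the mean ± SD of 5. In 8 panels no cKO point reaches the lowest WT point, and in that of Fcgr1 library cKO 3 lies above all 5 WT libraries.

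The cytosolic subunit genes Ncf1 and Ncf4 followed Cybb. Ncf1, which encodes the organiser subunit p47phox, was at 69.42, 52.35, 48.4, 64.32 and 64.65 FPKM in WT 1 to 5. In cKO 1 to 5 it was at 16.21, 2.51, 12.26, 1.76 and 13.51. The highest cKO library was at 33.5% of the lowest WT library, and cKO 2 and cKO 4 were again the lowest. The mean was 59.8 ± 8.97 FPKM in WT and 9.25 ± 6.66 in cKO (SD, n = 5 each), so that it fell by 3.15 on the log2 scale (SE 0.577, adjusted p = 0.00127 from limma). Ncf1 shares exon positions with Gtf2ird2 on the opposite strand, which was at 3.67 to 4.57 FPKM in WT and 2.15 to 2.8 in cKO.

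Ncf4, which encodes the phosphoinositide-binding subunit p40phox, was at 30.73, 21.43, 19.63, 24.95 and 29 FPKM in WT 1 to 5. The cKO libraries 1 to 5 were at 7.94, 1.53, 6.17, 0.56 and 7.81. The groups did not overlap, and cKO 4 held about 12.4 fragments of the gene. Its average was 25.2 ± 4.75 FPKM in WT and 4.80 ± 3.52 in cKO (SD, n = 5 each), so that it fell by 2.89 on the log2 scale (SE 0.636, adjusted p = 0.00371 from limma). Leaving out cKO 4 gave -2.30.

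Rac2, which encodes the RAC GTPase mostly restricted to blood cells, kept more of its mean level than the other 8, although Fcgr1 kept more in cKO 3 and cKO 5. It was at 104.3, 89.34, 81.19, 101.4 and 99.29 FPKM in WT 1 to 5. Libraries cKO 1 to 5 were at 52.79, 66.66, 53.83, 79.08 and 47.11. The groups did not overlap, but cKO 4, at 79.08, came within 2.11 FPKM of WT 3, and cKO 4 and cKO 2 were here the highest of their group. Its mean level was 95.1 ± 9.61 FPKM in WT and 59.9 ± 12.9 in cKO (SD, n = 5 each), and the log2 fold change of -0.69 (SE 0.135, adjusted p = 0.00192 from limma) was under the fold change limit. Rac1, the widely expressed relative, was at 72.6 ± 5.10 and 50.1 ± 4.58 FPKM (SD, n = 5 each), or -0.54 on the log2 scale (adjusted p = 3.00e-04 from limma), also under that limit.

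Of the receptors, Fcgr1 encodes the high-affinity activating receptor and was the lowest of the 9 genes. It was at 1.28, 1.33, 1.27, 0.87 and 1.03 FPKM in WT 1 to 5. In cKO 1 to 5 it was at 0.45, 0.29, 1.73, 0.1 and 0.66. The groups overlapped, because cKO 3 was above all WT libraries while the other 4 were below all of them. Its log2 fold change of -1.13 (SE 0.491, adjusted p = 0.0842 from limma) was not called. Without cKO 3 it was -1.55 (adjusted p = 0.00766 from limma) and was called. The gene rested on about 3.9 to 73.3 fragments per library, so its values are the least precise of the 9.

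Fcgr2b, the inhibitory receptor, was at 18.77, 11.19, 9.99, 13.01 and 14.7 FPKM in WT 1 to 5. The cKO libraries 1 to 5 were at 4.47, 2.73, 4.67, 3.67 and 5.12. The groups did not overlap, and the coefficient of variation was 25.4% in WT and 22.8% in cKO. The mean was 13.5 ± 3.43 FPKM in WT and 4.13 ± 0.943 in cKO (SD, n = 5 each), so that it fell by 1.69 on the log2 scale (SE 0.201, adjusted p = 1.37e-04 from limma).

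The low-affinity activating receptor Fcgr3 was at 69.37, 46.93, 43.71, 61.45 and 82.19 FPKM in WT 1 to 5. Libraries cKO 1 to 5 were at 11.7, 4.39, 10.44, 2.47 and 21.1. No library of one label entered the range of the other, and the cKO libraries spread 8.54-fold. Its average was 60.7 ± 15.9 FPKM in WT and 10.02 ± 7.32 in cKO (SD, n = 5 each), so that it fell by 2.91 on the log2 scale (SE 0.489, adjusted p = 7.82e-04 from limma). Fcgr4, the remaining activating receptor of the mouse, was low, at 1.1 to 9.74 FPKM in WT and 0 to 1.9 in cKO, and its groups overlapped. It was called lower at a log2 fold change of -2.27 (adjusted p = 0.0485 from limma), a call that was lost under 15 of 23 alternatives, among them that without cKO 4 (-1.58).

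Fcer1g, the signalling subunit that these activating receptors share with the IgE receptor, was the most abundant of the 9 genes in WT. It was at 128.2, 99.15, 80.59, 112.6 and 124 FPKM in WT 1 to 5. In cKO 1 to 5 it was at 17.44, 4.13, 17.75, 2.76 and 24.15. The groups did not overlap, and the highest cKO library was at 29.97% of the lowest WT library. Its mean level was 108.9 ± 19.4 FPKM in WT and 13.3 ± 9.35 in cKO (SD, n = 5 each), so that it fell by 3.45 on the log2 scale (SE 0.549, adjusted p = 5.73e-04 from limma). Tyrobp, which encodes the related ITAM adaptor DAP12, was 165.6 ± 38.1 FPKM in WT and 19.5 ± 14.8 in cKO (SD, n = 5 each), or -3.53 on the log2 scale (adjusted p = 6.78e-04 from limma).

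The libraries labelled cKO did not lose these genes to the same extent. In 7 of the 9, cKO 2 and cKO 4 were the lowest libraries, the exceptions being Cyba and Rac2. As a percentage of the WT mean, Cybb was at 33.3, 2.3, 17.7, 0.828 and 25.2 in cKO 1 to 5. Fcer1g was at 16.0, 3.79, 16.3, 2.54 and 22.2. Cyba, by contrast, stayed between 38.4 and 53.4, Fcgr2b between 20.2 and 37.8 and Rac2 between 49.5 and 83.1. Within the cKO libraries 2 patterns were thus visible, an uneven one in Cybb, Ncf1, Ncf4, Fcgr3 and Fcer1g and an even one in Cyba and Fcgr2b.

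**Figure D3:**
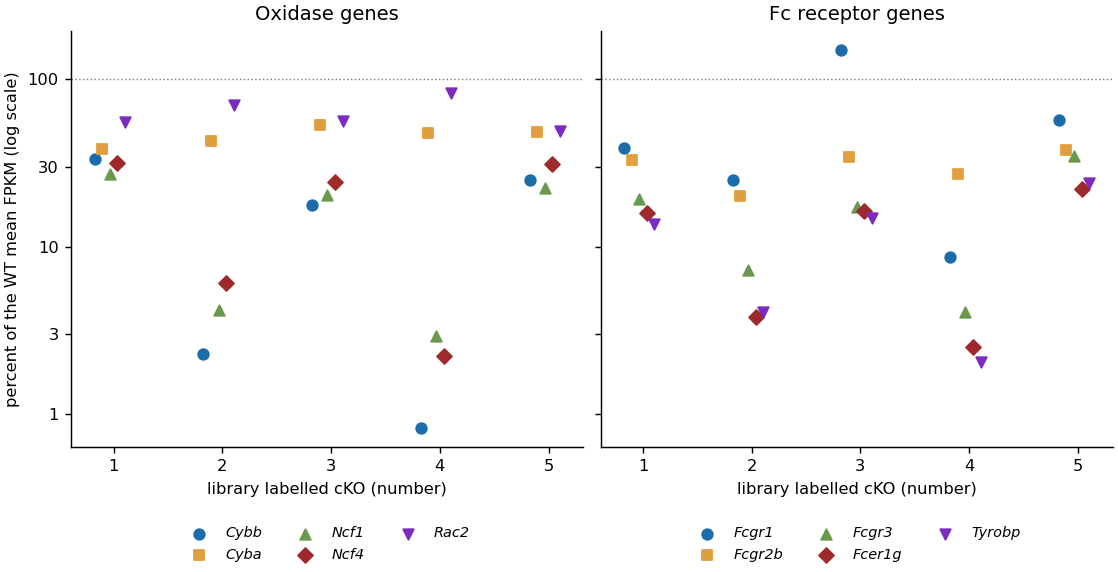
Level in each library labelled cKO as a percentage of the WT mean FPKM (log scale; dotted line at 100), for the oxidase genes (left) and the receptor genes with Tyrobp (right). Cybb, Ncf1, Ncf4, Fcgr3, Fcer1g and Tyrobp drop below 10% in cKO 2 and cKO 4, where Cyba, Rac2 and Fcgr2b do not.

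Markers of phagocytes moved with this order. For the counts below, 16.8% of all genes tested were called lower and 4.6% higher. Of 14 monocyte and macrophage markers, 13 were called lower in cKO (median log2 fold change -4.08), and their summed level was 1015 to 1778 FPKM in WT and 75.85, 20.92, 187, 8.89 and 317.6 in cKO 1 to 5. In cKO 4 the receptor gene Csf1r was at 0.09 FPKM and the lysozyme gene Lyz2, at 460.4 or more in WT, was at 2.09. Of 17 neutrophil markers, 6 were called lower and none higher, and their summed level was 2770 to 4074 FPKM in WT and 2766, 190.1, 996.1, 154.7 and 1246 in cKO 1 to 5. The early granule gene Mpo was at 973.8 to 1346 FPKM in WT and 49.43 to 391.9 in cKO. The late neutrophil gene S100a9 was at 48.33 to 93.11 FPKM in WT and at 894.8, 17.61, 157.7, 7.57 and 44.16 in cKO 1 to 5. The cKO library highest in Cybb, Ncf1 and Ncf4 was also cKO 1. Its neutrophil sum thus held Mpo (277.3 FPKM) below and S100a9 above their WT ranges. Of 9 dendritic cell markers 5 were called lower, with sums of 40.61 to 52.66 in WT and 4.45 to 30.52 in cKO, where cKO 3 was the highest. Most of the cKO 3 sum came from Cd74 (20.19 FPKM) and H2-Aa (5.69). Erythroid markers moved the other way, with 7 of 11 tested called higher and 0 lower, and sums of 964.7 to 2200 in WT and 2987 to 4321 in cKO. The part of these cell types in the values of the 9 genes was not tested. With cKO 2 and cKO 4 left out, an alternative chosen after seeing the data, 7 of the 9 genes were called lower, against 13.4% of all genes tested, with a log2 fold change of -1.98 for Cybb, -2.08 for Ncf1, -1.76 for Ncf4, -2.10 for Fcgr3 and -2.45 for Fcer1g.

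Sex was examined in the same way. Among the 7 libraries with Xist of at most 1 FPKM, 2 of WT and 5 of cKO, 5 of the 9 genes were called lower, against 12.2% of all genes tested on those libraries, and 8 of the 9 had groups that did not overlap, as did 27.9% of all genes in the same direction. Cybb and Ncf4 lost their call there at log2 fold changes of -3.49 (adjusted p = 0.0952 from limma) and -2.94 (adjusted p = 0.0673 from limma), close to those over all libraries. No cKO library had Xist above 1 FPKM, so a fit with a covariate for it also compares cKO with WT 1 and WT 2. Its fold changes were those of the 7 libraries, and it is not a second check on sex. All 7 genes called over all libraries were called in that fit, against 14.9% of all genes called lower.

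To ask whether subunits of the oxidase, or genes of related or opposed function, changed in proportion, 5 ratios of FPKM were compared between the labels. Two-sided exact permutation tests were used, adjusted over the 5. The ratio of Cybb to Cyba, the subunits of flavocytochrome b558, was 0.46, 0.333, 0.358, 0.443 and 0.41 in WT 1 to 5. In cKO 1 to 5 it was 0.351, 0.0218, 0.134, 0.00702 and 0.209. Library cKO 1 lay within the WT range and the other 4 below it. The geometric mean was 5.81-fold lower in cKO, a log2 difference of -2.54 (exact p = 0.0159, adjusted p = 0.0397), where the smallest p that 5 against 5 allow is 0.00794. Without cKO 4 the log2 difference was -1.72 and the exact test's adjusted p = 0.0265.

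The ratio of the inhibitory Fcgr2b to the activating Fcgr3 was 0.271, 0.238, 0.229, 0.212 and 0.179 in WT 1 to 5. In cKO 1 to 5 it was 0.382, 0.622, 0.447, 1.49 and 0.243. Library cKO 5 lay within the WT range and the other 4 above it, and in cKO 4 the inhibitory receptor was the more abundant transcript. The geometric mean was 2.33-fold higher in cKO, a log2 difference of 1.22 (exact p = 0.0159, adjusted p = 0.0397). Leaving out any 1 WT library lifted the adjusted p of these 2 ratios to 0.0794 or more in the exact test, with log2 differences of -2.60 to -2.49 and 1.14 to 1.29.

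No difference was detected in the other 3 ratios. That of Ncf1 to Ncf4 was 2.39 in WT and 2.05 in cKO (geometric means, log2 difference -0.22, adjusted p = 0.37, exact permutation test). Without cKO 4, which at 3.14 stood above the 4 other cKO libraries (1.64 to 2.04), it was -0.38 with an adjusted p = 0.0265 in the exact test. Rac2 to Rac1 was 1.31 and 1.18 (log2 difference -0.15, adjusted p = 0.468, exact permutation test). Fcer1g to Tyrobp was 0.664 and 0.697 (log2 difference 0.07, adjusted p = 0.468, exact permutation test), and all 10 libraries lay between 0.605 and 0.809, although both genes spanned a wide range of levels.

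**Figure D4:**
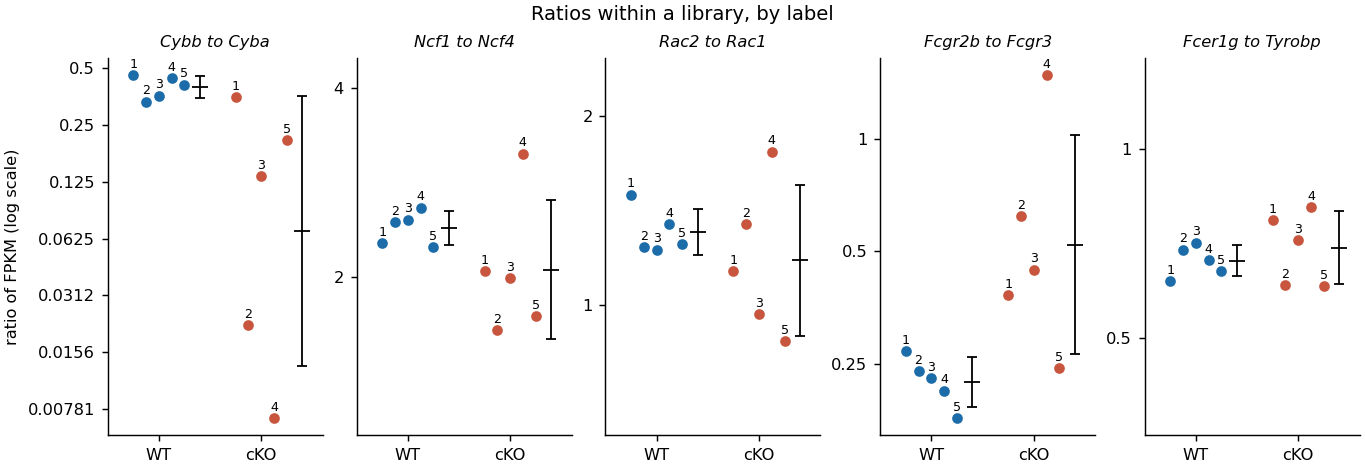
Ratio of the FPKM of 2 genes within each library (log scale), for the WT and the labelled cKO libraries. Points are libraries with their numbers, and the bar beside them is the geometric mean with 1 SD of the log2 values. Cybb to Cyba falls below 0.03 in cKO 2 and cKO 4, Fcgr2b to Fcgr3 reaches 1.49 in cKO 4, and Fcer1g to Tyrobp stays between 0.605 and 0.809.

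The order of the levels differed between the labels. In WT it ran Fcer1g (108.9 FPKM), Rac2 (95.1), Cyba (80.6), Fcgr3 (60.7), Ncf1 (59.8), Cybb (32.6), Ncf4 (25.2), Fcgr2b (13.5) and Fcgr1 (1.16). The ranges of neighbours overlapped except between Ncf1 and Cybb, between Ncf4 and Fcgr2b and between Fcgr2b and Fcgr1. In cKO it ran Rac2 (59.9 FPKM), Cyba (37.2), Fcer1g (13.3), Fcgr3 (10.02), Ncf1 (9.25), Cybb (5.17), Ncf4 (4.80), Fcgr2b (4.13) and Fcgr1 (0.646). There Rac2, Cyba and Fcgr1 stood apart from their neighbours, and the ranges of the 6 genes from Fcer1g to Fcgr2b overlapped. Of the 5 oxidase genes among the 9, those of p22phox and RAC2 thus had the highest mean levels in both groups.

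Across the 10 libraries, the likeness of 2 profiles was measured as the root mean square difference of their centred log2(FPKM + 0.1) values. All points share these libraries and their marker levels, so this is a description. Among the 9 genes and the partners Rac1, Fcgr4 and Tyrobp the closest pair was Fcer1g with Tyrobp (0.138), followed by Ncf1 with Fcer1g (0.236) and Ncf1 with Ncf4 (0.245). Cybb was 0.5 from Ncf4 and farther from every other gene of the set. Among about 12326 genes averaging 1 FPKM or more, the 3 nearest to Cybb were Pirb (0.325), 1700020L24Rik (0.367) and C3 (0.387), and those to Ncf1 were Sorl1 (0.161), Fes (0.204) and Plac8 (0.205). The nearest to Ncf4 were Dok3 (0.128), Sorl1 (0.151) and Cd53 (0.158), to Fcgr3 Nrg2 (0.12), Adam15 (0.133) and Abcd2 (0.151), and to Fcer1g Rgs2 (0.116), Nfam1 (0.12) and Man1c1 (0.128). Nearest to Cyba were Vav1 (0.0832), Nucb2 (0.0914) and Pold4 (0.0923), to Rac2 Ano6 (0.0992), Marcksl1 (0.114) and Micall1 (0.137), and to Fcgr2b Ptprc (0.131), Phf21a (0.142) and Hsd17b11 (0.143). Fcgr1 had no near neighbour, its closest being Cd79a at 0.395, Ets2 at 0.412 and Ltb at 0.429.

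The rest of the pathway was read from 8 lists of 120 genes. Of the 106 that were tested, 60 (56.6%) were called lower and 2 higher, where the shares over all genes were 16.8% and 4.6%. Of 14 other genes of the NADPH oxidase family, 7 were tested, 3 were called lower and 1 higher (median log2 fold change -0.54). Among the lower ones were Hvcn1, the proton channel that balances the charge moved by the oxidase (-2.71, adjusted p = 7.83e-04 from limma), and Cybc1, a chaperone of the flavocytochrome (-1.05, adjusted p = 9.72e-05 from limma). Hvcn1 was at 7.81 to 14.5 FPKM in WT and 0.51 to 3.65 in cKO, and Cybc1 at 18.73 to 22.37 and 8.08 to 12.73. Cybc1 fell below the fold change limit under 5 of 23 alternatives, among them that without cKO 4 (-0.97). The gene called higher, named after its values were seen, was Nox1, at 0 to 0.05 FPKM in WT and 0.09 to 0.32 in cKO. Rap1a, a small GTPase that associates with flavocytochrome b558, was at 56.4 ± 2.48 and 52.7 ± 3.22 FPKM (SD, n = 5 each) and was not called.

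Of 15 other Fc receptor genes, 9 were tested, 6 were called lower and 0 higher (median -1.72). The IgE receptor subunits Ms4a2 and Fcer1a, typical of mast cells and basophils, had log2 fold changes of -2.02 (adjusted p = 1.15e-04 from limma) and -1.49 (adjusted p = 0.00514 from limma). Fcgrt, the neonatal Fc receptor that recycles IgG, was 9.37 ± 1.70 FPKM in WT and 1.16 ± 1.17 in cKO (SD, n = 5 each), or -3.61 on the log2 scale (adjusted p = 0.00186 from limma), and -2.97 without cKO 4. Of 11 markers of mast cells, basophils and eosinophils, 9 were called lower, against 16.8% of all genes tested. They summed to 875.9 to 1966 FPKM in WT and 154.9 to 761 in cKO. Ms4a2 and Fcer1a are themselves on that list, so its count and sums are not independent of them. The part of these cell types in the values was not tested.

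**Figure D5:**
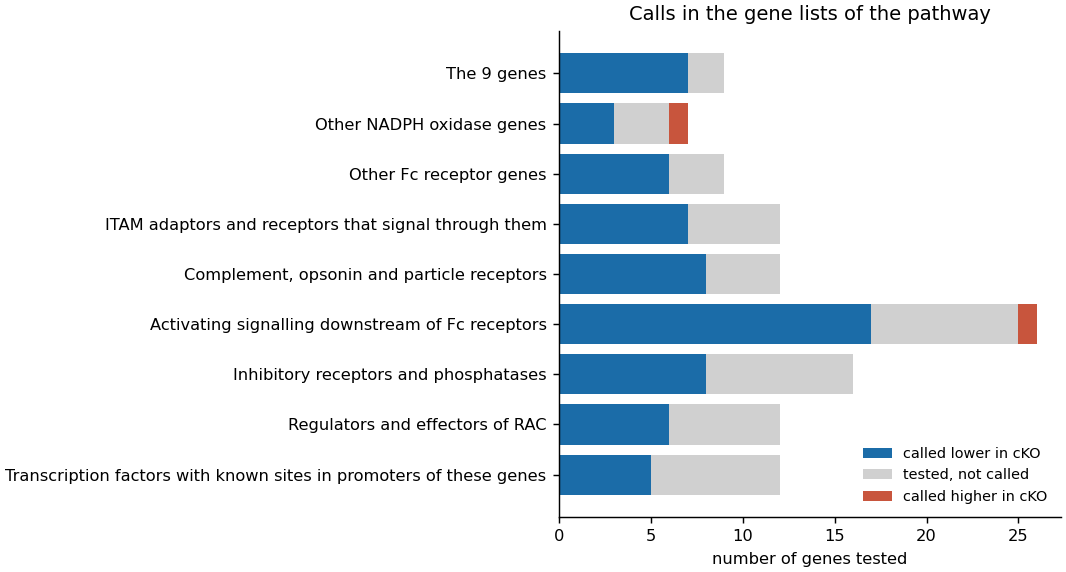
Number of genes tested in the 9 genes and in 8 lists of the pathway, split into called lower in the libraries labelled cKO (blue), called higher (red) and not called (grey). The longest bar, 26 genes of activating signalling, holds 17 called lower and 1 called higher.

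Of 12 genes listed as ITAM adaptors and receptors that signal through them, 7 were called lower and 0 higher (median -1.41). Beside Tyrobp the 7 included Hcst (-1.29), the receptor gene Trem3 (-1.99) and the platelet collagen receptor gene Gp6 (-3.63), which pairs with Fcer1g in platelets. Hcst was on the list although the adaptor it encodes, DAP10, has no ITAM of its own. Of 13 genes for complement, opsonin and particle receptors, 12 were tested and 8 were called lower, 0 higher (median -1.74). The beta 2 integrin gene Itgb2 was at 36.26 to 52.2 FPKM in WT and 16.15 to 21.15 in cKO, its partner Itgam had a log2 fold change of -2.47 and the beta-glucan receptor gene Clec7a one of -3.82. The complement gene C1qa, at 3.75 to 10.67 and 0.26 to 8.39 FPKM, was not called, but it was without cKO 3 (-2.37, adjusted p = 0.0179 from limma) or cKO 5 (-2.23, adjusted p = 0.0350 from limma). With the Xist covariate, or only libraries with Xist of at most 1 FPKM, the genes called lower fell from 7 to 4 in the ITAM list and from 8 to 5 in the opsonin list. Trem3 (adjusted p = 0.0778 and 0.137 from limma) and Itgam (adjusted p = 0.0514 and 0.103 from limma) lost their calls there.

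Activating signalling downstream of Fc receptors held 26 genes, of which 17 were called lower and 1 higher (median -1.74). The phospholipase Plcg2 was 37.3 ± 4.88 FPKM in WT and 7.63 ± 3.89 in cKO (SD, n = 5 each), the PI3K subunit Pik3r5 had a log2 fold change of -2.97 and the RAC exchange factor Vav1 one of -1.18. The kinase gene Btk, at 47.59 to 48.93 FPKM in WT and 33.11 to 51.58 in cKO, was not called. The gene called higher, named after its values were seen, was Gab2, an adaptor of PI3K and SHP2, which rose from 8.77 to 12.67 FPKM in WT to 14.63, 40.21, 37.3, 46.43 and 36.93 in cKO 1 to 5 (log2 fold change 1.58, adjusted p = 8.45e-04 from limma).

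Inhibitory receptors and phosphatases did not stand on the other side. Of 16 genes 8 were called lower and 0 higher (median -1.41), among them the ITIM receptors Clec12a (-3.12), Cd300a (-3.67) and Pirb (-3.24). The phosphatase SHP-1 gene Ptpn6 passed the adjusted p (6.64e-04, limma) at a log2 fold change of -0.98, just under the limit, and was called without WT 3 (-1.02), cKO 3 (-1.05) or cKO 5 (-1.11), and the kinase gene Csk, at 47.8 ± 3.11 and 48.8 ± 6.15 FPKM (SD, n = 5 each), was not called. Of 12 regulators and effectors of RAC, 6 were called lower and 0 higher (median -1.04). The exchange factor Arhgef6 had a log2 fold change of -2.10 and the engulfment adaptor Elmo1 one of -1.78. The abundant GDP dissociation inhibitors Arhgdib (306 FPKM in WT) and Arhgdia (185 FPKM) and the WASP gene Was were lower by less than 2-fold. Their log2 fold changes were -0.84, -0.24 and -0.56 (adjusted p = 2.37e-04, 0.0410 and 3.91e-04 from limma).

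Of 12 transcription factor genes with known sites in promoters of these genes, 5 were called lower and 0 higher (median -0.91). Irf8, which drives the monocyte and dendritic cell lineages, was at 53.65, 43.3, 38.13, 47.23 and 48.74 FPKM in WT 1 to 5. The cKO libraries 1 to 5 were at 0.38, 0.42, 5.41, 0.09 and 10.16, a log2 fold change of -5.24 (SE 0.961, adjusted p = 0.00127 from limma). It was -4.57 without cKO 4 and -6.01 without cKO 5. Cebpa, a factor of granulocyte and monocyte progenitors, was 45.3 ± 9.64 FPKM in WT and 7.08 ± 5.63 in cKO (SD, n = 5 each), or -3.09 on the log2 scale (adjusted p = 0.00104 from limma). The gene of PU.1, Spi1, was named after its values were seen because 3 of the promoters above hold its letters. It was at 30.34 to 45.96 FPKM in WT and, evenly, at 9.46, 10.25, 11.93, 14.12 and 14.54 in cKO 1 to 5, a log2 fold change of -1.73 (adjusted p = 4.64e-05 from limma). The erythroid factor gene Gata1 was at 48 to 77.36 FPKM in WT and 92.03 to 109.4 in cKO, under the fold change limit (0.81, adjusted p = 3.60e-04 from limma). Of the 5 genes whose promoters hold the PU.1 or the IRF letters, 4 were called lower, and of the 4 with neither, 3 were.

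For the remaining cell types that the Lin− gate could hold, 4 of 7 B-lymphoid, 6 of 11 T and NK, 8 of 9 megakaryocyte and 6 of 9 stem and progenitor markers tested were called lower and 0 higher, and the median log2 fold changes were -1.75, -1.41, -2.14 and -1.94. Of the genes of lineage antigens, 2 of 4 tested were called lower (median -1.36) and 1 was called higher. Over all genes tested, the shares called lower and higher were 16.8% and 4.6%.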

How the data were processed

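RNA from Lin− bone marrow cells (5 WT and 5 cKO libraries) was sequenced by the authors in paired-end reads. They deposited FPKM, to 2 decimals. The submitters' processing notes name cutadapt 1.9.1, HISAT2 2.0.1, HTSeq 0.6.1 and GRCm39, and the gene lengths behind the FPKM are not given in the sources used here. Columns were matched to samples by genotype and replicate number. The DESeq2 test of the study was not run, since FPKM are not counts.

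log2(FPKM + 0.1) of genes averaging 0.1 FPKM or more was tested with limma 3.58.1 in R 4.3.3 (eBayes, trend, two-sided) and Benjamini-Hochberg adjustment. A call needed a 2-fold change and an adjusted p under 0.05. Ratios were compared with exact permutation tests (Python 3.11.15, scipy 1.17.1). The steps were tested on simulated data. Depth was read from the steps between low values (up to 20 fragments) of 15348 genes with a single transcript. Fragment numbers use the canonical transcript length and are approximate, and floors cover counting error only. No 2 libraries of a group were alike within sampling noise (chi-square per degree of freedom at least 3.5).

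The genes and lists were chosen with earlier results of these data known. Named genes were the 9 genes and their partners, Dhx9 and Xist, in each pathway list the 3 with the highest WT mean and the 2 with the largest change at a mean of at least 1 FPKM, in each marker list up to 3 with the highest mean, and the 3 nearest profiles of each gene. Markers beyond this rule (Csf1r, S100a9, Ltf, Camp, Ngp, Lcn2, H2-Aa, Cd5, Ly6g), Spi1, Nox1 and Gab2 were chosen after their values were seen. A few named genes are not reported here. Replicate numbers did not pair the samples. Alternatives were each library left out, adjusted p alone, the replicate number as a block, a covariate for Xist, only libraries with Xist of at most 1 FPKM, quantile normalization, equal library sums, median-ratio scaling, limma without the trend, pseudocounts of 0.01 and 1, and 2 other filters (none, or a mean of 1 FPKM). Leaving out cKO 2 and cKO 4 together was added after seeing the data.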

Additional observations from a re-analysis of the deposited data

Results flagged for a closer look

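In 98 groups of 5 libraries (the named genes and the 5 ratios, by label), 4 had 1 library far from the other 4, with a gap over 0.71 of the group's range. Chance gives about 1 in 20, or 4.9 of 98. The ratio of Ncf1 to Ncf4 was 3.14 in cKO 4 against 1.64 to 2.04 in the other cKO libraries. Rap1a was at 58.31 FPKM in cKO 1 against 50.17 to 52.24 in the others. Fcer1a was at 14.84 FPKM in WT 3 against 23.63 to 25.98, and Gp6 at 0.86 FPKM in cKO 5 against 0.32 to 0.42.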

How the results depend on the processing

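Under 23 alternatives 5 to 8 of the 9 genes were called lower and 0 higher (7 or 8 with any 1 library left out), and 51 to 81 genes of the pathway lists were called lower. Overlap was counted under 14 (3 scalings, libraries with Xist of at most 1 FPKM and each library left out), where 7 to 9 of the 9 had groups that did not overlap. Single fits of the 9 genes gave the same call in 202 of 206 cases, and none reversed. Cybb and Ncf4 lost their call among libraries with Xist of at most 1 FPKM, Fcgr1 gained one without cKO 3, and Rac2 was called on adjusted p alone. Fcer1a and Pirb also lost theirs among libraries with Xist of at most 1 FPKM (adjusted p = 0.0533 and 0.0642 from limma). Of 917 fits of 40 other named genes 852 gave the same call and 9 reversed, all of genes that were not called. These were Rap1a (0.009586 with median-ratio scaling), Btk (0.01486 with median-ratio scaling, 0.02112 without cKO 1) and Csk (-0.01733 with equal library sums, -0.05923 with quantile normalization, -0.04113 with cKO 2 and cKO 4 left out, and -0.01788 to 0.1017 with each library left out). Pathway genes called higher went from 2 to 1 with a pseudocount of 1, a mean of at least 1 FPKM, the Xist covariate, the libraries with Xist of at most 1 FPKM and without cKO 3, and to 6 on adjusted p alone. With single libraries left out they were 1 to 2.

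Same-numbered samples deviated together with correlations of -0.0103 to 0.117, and 3 of 5 correlated best with their own number, so the numbers share only a name. With the replicate number as a block 7 of the 9 genes were called lower, and over all genes 3107 were lower and 857 higher. The block could not reach the threshold for the ratios, since its smallest exact p is 0.0625: Cybb to Cyba was -2.54 and Fcgr2b to Fcgr3 1.22 (adjusted p = 0.156 each). With Xist of at most 1 FPKM they were -2.52 and 1.04 (adjusted p = 0.571, 2 against 5 libraries, smallest exact p 0.0476). With each library left out, Cybb to Cyba was -3.13 to -1.72, Fcgr2b to Fcgr3 0.842 to 1.496, Ncf1 to Ncf4 -0.38 to -0.14, Rac2 to Rac1 -0.29 to -0.04 and Fcer1g to Tyrobp 0.02 to 0.12. With cKO 2 and cKO 4 left out, Ncf1 to Ncf4 was -0.32 and Rac2 to Rac1 -0.41, each at an adjusted p = 0.0446 in the exact test. The cause was not tested. Depth limits Fcgr1, Fcgr4 and Nox1, which lie near the floor in some libraries.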
